A study of Mus musculus with 6 samples.

Results

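Ephrins and Eph receptors signal between touching cells. The ephrin-B ligands are transmembrane proteins, the Eph receptors are receptor tyrosine kinases, and binding sends a signal into both cells, which often pulls back, repels or sorts them at a boundary. In the mouse, loss of Efnb1, or of Ephb2 together with Ephb3, causes cleft palate, and in people mutations of EFNB1 cause craniofrontonasal syndrome. The 10 genes described here are the ligand genes Efnb1, Efnb2 and Efnb3, the EphB receptor genes Ephb1, Ephb2, Ephb3, Ephb4 and Ephb6, and Epha4 and Epha7 of the EphA class. They were chosen by gene symbol, and all 10 were found among the 23443 symbols of the deposited tables.

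The study sequenced RNA of mouse palatal cells that were sorted for red fluorescent protein (RFP) made from the Osr2 locus. Osr2 encodes a zinc finger transcription factor of the palatal mesenchyme. Mutant embryos were Osr2RFP/- and control embryos Osr2RFP/+, so the mutants and the controls all carried 1 RFP allele, and all were of a mixed strain background. At embryonic day 13.5 (E13.5) there were 2 mutant and 2 control libraries, and at E12.5 there was 1 of each. The labels do not say what the second mutant allele lacks, nor whether each library is of 1 embryo. The p-values therefore reflect no more than how far these libraries scatter, which may be technical. The sort takes cells by activity of the Osr2 locus itself.

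Levels are in FPKM, the authors' measure of fragments mapped to a transcript, scaled to its length and to the mapped fragments of the library, summed here over the transcript lines of a gene. The FPKM of a library added up to between 158208 and 167058 at E13.5, to 189855 in the E12.5 mutant and to 154919 in the E12.5 control. The deposited coverage gives an estimated 14100000 to 18000000 fragments per library. Osr2 itself had 68.5 and 88.4 FPKM in the E13.5 mutants, against 138 and 152 FPKM in the E13.5 controls, and 163 FPKM in the E12.5 mutant, against 215 FPKM in the E12.5 control. Its difference at E13.5 was -0.89 on the log2 scale (limma adjusted p = 0.0409), a call lost without control replicate 1 or 2 of E13.5 (adjusted p = 0.217 and 0.392), without a filter on low values, with either filter on the mean, and under each of 3 other scalings. The 10 palatal mesenchyme markers summed to 821 to 979 FPKM.

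Most of the ephrin-B and Eph genes were well represented in the sorted cells. Averaged over the 6 libraries, 8 of the 10 genes exceeded 10 FPKM, and the other two, Ephb6 and Ephb1, were at 2.69 and 1.98 FPKM. Epha7 had the highest mean (44.8 FPKM), followed by Ephb3 (36.0), Ephb4 (30.1), Epha4 (29.9), Efnb1 (21.6), Efnb3 (19.6), Efnb2 (15.0) and Ephb2 (14.5). Neighbours in this order had overlapping ranges over the 6 libraries except Efnb3 above Efnb2 (18.2 to 20.9 FPKM against 11.3 to 18.17) and Ephb2 above Ephb6 (12.7 to 18.9 against 2.34 to 3.60). Ephb4 was above Epha4 in 3 of 6 libraries, so these 2 genes had no fixed order.

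**Figure D1:**
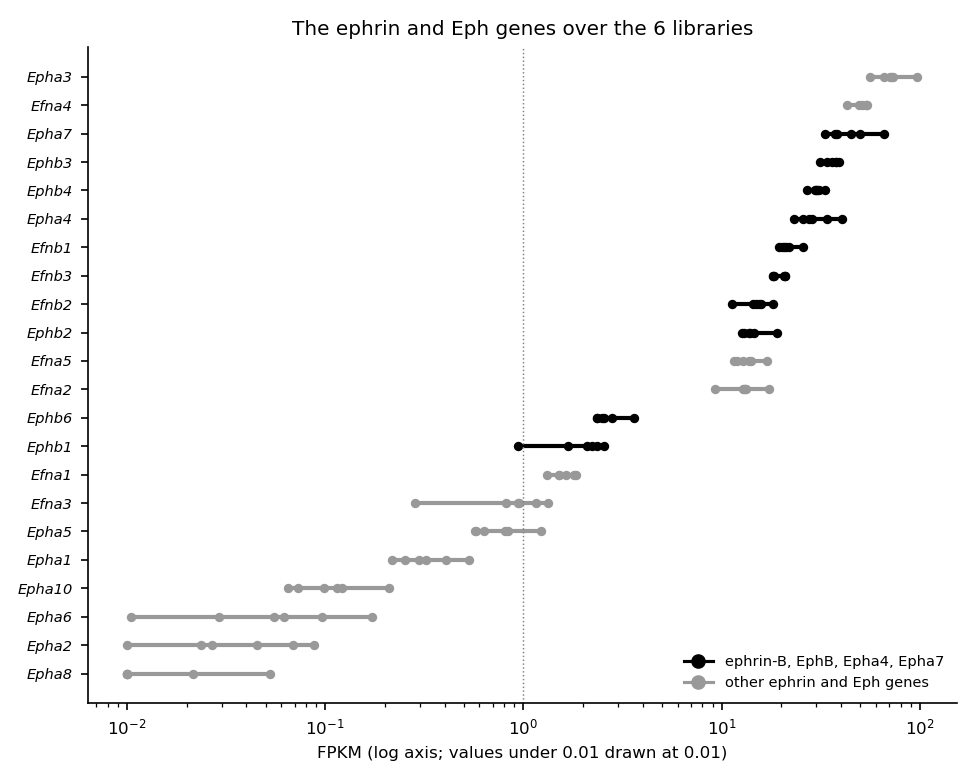
FPKM of the 22 ephrin and Eph genes on a log axis, with 1 point per library and a line over the range of the 6 libraries, sorted by mean. The ephrin-B, EphB, Epha4 and Epha7 genes are in black and the other ephrin and Eph genes in grey. Ephb1 and Ephb6 sit near 1 to 4 FPKM, and the other 8 black genes sit between 11.3 and 65.6 FPKM.

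By class, the 3 ephrin-B ligand genes summed to 49.0 to 61.5 FPKM in a library and the 5 EphB receptor genes to 79.0 to 91.9 FPKM. Ephb3 and Ephb4 made up most of the receptor sum, with 37.0% to 45.8% and 32.7% to 38.2% of it. Ephb2 gave 15.2% to 20.6%, Ephb6 2.66% to 3.92% and Ephb1 1.14% to 3.05%. The ligand sum was divided more evenly, with 35.4% to 42.0% from Efnb1, 33.2% to 37.2% from Efnb3 and 23.0% to 29.8% from Efnb2.

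Of the 10 genes, 4 have a pair of transcript lines in the tables, and in Ephb1 their lengths differ by that of 1 whole coding exon. The line NM_173447 is 4667 bases long and NM_001168296 4544 bases. Their difference of 123 bases equals the length of exon 10 of 16 (GRCm38, chr9:101984082-101984204, minus strand), which in the GENCODE M21 annotation is in the first and not in the second. All 123 bases are coding and their number is a multiple of 3, so the reading frame goes on without them. The exon codes for the stretch just inside the membrane that leads into the kinase domain, where Eph receptors carry conserved tyrosines that are phosphorylated on activation. Exon 10 of Epha7 (chr4:28947528-28947653, plus strand, 126 bases) codes for the corresponding stretch and is shown beside it, because Epha7 has a short line that ends before this exon. With the 2 exons set end to end without gaps, 86 of 123 bases (69.9%) were identical, and these are in capitals.
Ephb1 exon 10: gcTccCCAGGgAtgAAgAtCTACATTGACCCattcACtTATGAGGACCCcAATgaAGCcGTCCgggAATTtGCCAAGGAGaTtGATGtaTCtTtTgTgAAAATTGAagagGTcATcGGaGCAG
Epha7 exon 10: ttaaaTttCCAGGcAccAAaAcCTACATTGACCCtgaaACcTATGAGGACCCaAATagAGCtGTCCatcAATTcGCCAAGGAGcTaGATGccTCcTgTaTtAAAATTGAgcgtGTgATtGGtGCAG

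Several of these genes are also known from other cell types, so the markers of those types are given beside them. Efnb2 marks arterial and Ephb4 venous endothelium, and Epha4, Epha7 and Efnb3 are widely used in neurons. Of 10 endothelial markers, 9, among them Pecam1, Cdh5, Kdr, Tek and Tie1, were under 1 FPKM in every library, and the list summed to 5.34 and 7.17 FPKM in the E13.5 mutants, against 3.52 and 3.74 FPKM in the E13.5 controls, and to 9.29 in the E12.5 mutant, against 3.74 in the E12.5 control. Of its members only Erg exceeded 1 FPKM, with 3.79 and 5.81 FPKM in the E13.5 mutants, against 2.63 and 2.17 FPKM in the E13.5 controls, and 8.39 in the E12.5 mutant, against 2.54 in the E12.5 control. The sum of the list was thus higher in the mutants at each age, but Erg carried it. Egfl7, the next highest, had 0.969 and 0.847 FPKM in the E13.5 mutants, against 0.587 and 0.897 in the E13.5 controls. At E12.5 Egfl7 had 0.370 FPKM in the mutant, against 0.643 in the control. The part of endothelium in the levels of Efnb2 and Ephb4 was not tested. Efnb2 had 11.3 to 18.17 FPKM and Ephb4 26.97 to 33.1 FPKM in the same libraries. Of 9 neuronal markers 5 (Dcx, Elavl3, Elavl4, Snap25 and Stmn2) stayed under 1 FPKM, and the list, carried by Gap43, Nefl and Nefm, summed to 79.9 and 91.2 FPKM in the E13.5 mutants, against 54.8 and 50.8 FPKM in the E13.5 controls, and to 44.1 in the E12.5 mutant, against 33.9 in the E12.5 control. The part of neurons in the levels of Epha4, Epha7 and Efnb3 was not tested. The sums of 10 epithelial, 7 glial and 6 skeletal muscle markers were at most 5.28, 1.48 and 2.29 FPKM. Of 6 leukocyte markers 5 were found, with a sum of at most 3.67 FPKM, and 6 pericyte and smooth muscle markers, led by Notch3 and Cspg4, summed to 9.65 to 15.6 FPKM, while 6 erythroid markers summed to 428 and 236 FPKM in the E13.5 mutants, against 537 and 462 in the E13.5 controls, and to 615 in the E12.5 mutant, against 582 in the E12.5 control. In such bulk libraries, fewer cells that express a gene and less RNA per cell cannot be told apart.

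None of the 3 ligand genes passed the test between genotypes at E13.5. Efnb1, the X-linked ligand whose loss gives cleft palate, had 19.5 and 20.1 FPKM in the E13.5 mutants, against 22.0 and 20.7 FPKM in the E13.5 controls, and 25.9 FPKM in the E12.5 mutant, against 21.1 FPKM in the E12.5 control. The E13.5 mutants lay below both controls by a small margin, whereas the E12.5 mutant lay above its control. The difference at E13.5 was -0.10 on the log2(FPKM + 1) scale (SE 0.125, 95% interval -0.38 to 0.18, limma adjusted p = 0.889). As Efnb1 is X-linked, Xist, which the inactive X chromosome makes, is given beside it. Its RNA had 138, 129 and 141 FPKM in E13.5 mutant replicate 2, the E12.5 mutant and the E12.5 control, and at most 0.0194 FPKM in the other libraries. Efnb1 stood at 20.1, 25.9 and 21.1 FPKM in the libraries with Xist, and at 19.5 to 22.0 FPKM in those without, and the part of sex in its values was not tested.

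Efnb2, a ligand of Ephb4 and other EphB receptors, had 11.3 and 15.8 FPKM in the E13.5 mutants, against 18.17 and 14.5 FPKM in the E13.5 controls, and 14.9 FPKM in the E12.5 mutant, against 15.5 FPKM in the E12.5 control. The lower mutant and the higher control set the difference of the means, and mutant replicate 2 lay between the controls. The lower mutant, replicate 1, has the number 3047 in its title, and the other E13.5 libraries have 3048. The difference at E13.5 was -0.26 (SE 0.177, 95% interval -0.66 to 0.14, limma adjusted p = 0.786), with the lowest unadjusted p of the 10 genes in this contrast. Over the alternatives of the processing, the difference of Efnb2 was between -0.49 and -0.034. Efnb3, known for keeping corticospinal axons from crossing the midline in the mouse, had 18.2 and 20.9 FPKM in the E13.5 mutants, against 20.9 and 18.4 FPKM in the E13.5 controls, and 20.7 FPKM in the E12.5 mutant, against 18.2 FPKM in the E12.5 control. Its highest library was 1.15 times its lowest, the smallest such ratio of the 10 genes, although Ephb4 had the lower coefficient of variation (6.70% against 7.26% for Efnb3). The difference of Efnb3 at E13.5 was -0.0045 (limma adjusted p = 0.997).

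Nor did any EphB receptor gene pass between genotypes at E13.5. Ephb2, which acts together with Ephb3 in the palate, had 13.0 and 12.7 FPKM in the E13.5 mutants, against 14.5 and 13.7 FPKM in the E13.5 controls, and 18.9 FPKM in the E12.5 mutant, against 13.9 FPKM in the E12.5 control. Its 2 genotypes did not overlap at E13.5, with the mutants lower, and stood the other way round in the E12.5 pair. The difference at E13.5 was -0.13 (SE 0.122, 95% interval -0.40 to 0.15, limma adjusted p = 0.861). Ephb3 had 31.4 and 36.0 FPKM in the E13.5 mutants, against 39.3 and 37.7 FPKM in the E13.5 controls, and 34.0 FPKM in the E12.5 mutant, against 37.7 FPKM in the E12.5 control. It was the only one of the 10 genes with every mutant library below every control library of its age, a pattern of 5.32% of all genes tested, and none of the 10 was above at each age, as 21.4% of all genes were. Its differences were -0.19 at E13.5 (95% interval -0.49 to 0.12, limma adjusted p = 0.805) and -0.17 across both ages (95% interval -0.42 to 0.07, limma adjusted p = 0.511), and neither passed the threshold.

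Ephb4, the receptor of Efnb2 in vessels, had 30.2 and 29.8 FPKM in the E13.5 mutants, against 29.6 and 31.1 FPKM in the E13.5 controls, and 33.1 FPKM in the E12.5 mutant, against 26.97 FPKM in the E12.5 control. The 4 libraries of E13.5 lay within 1.53 FPKM of each other, and the difference was -0.02 (95% interval -0.30 to 0.27, limma adjusted p = 0.985). Ephb6, whose kinase domain is inactive, had 2.36 and 2.55 FPKM in the E13.5 mutants, against 2.34 and 2.50 FPKM in the E13.5 controls, and 3.60 FPKM in the E12.5 mutant, against 2.81 FPKM in the E12.5 control. The genotypes overlapped at E13.5 (difference 0.01, limma adjusted p = 0.987). Ephb1, a receptor known from the sorting of retinal axons at the mouse optic chiasm, had 2.10 and 2.55 FPKM in the E13.5 mutants, against 2.36 and 1.67 FPKM in the E13.5 controls, and 2.23 FPKM in the E12.5 mutant, against 0.937 FPKM in the E12.5 control. It was the lowest of the 10 genes and the one that varied most, by 2.72 times between the highest and the lowest library, and the genotypes overlapped at E13.5 (difference 0.15, 95% interval -0.20 to 0.49, limma adjusted p = 0.867).

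The 2 EphA genes were high in every library. Epha4, a receptor that binds ephrins of the A and the B class, had 25.7 and 33.8 FPKM in the E13.5 mutants, against 27.5 and 23.1 FPKM in the E13.5 controls, and 40.4 FPKM in the E12.5 mutant, against 28.7 FPKM in the E12.5 control. The E13.5 groups overlapped through mutant replicate 1. The difference was 0.22 at E13.5 (95% interval -0.15 to 0.59, limma adjusted p = 0.817) and 0.30 across both ages (95% interval -0.0025 to 0.61, limma adjusted p = 0.389). Epha7, a receptor mainly of ephrin-A ligands, had 33.3 and 44.7 FPKM in the E13.5 mutants, against 37.4 and 38.2 FPKM in the E13.5 controls, and 65.6 FPKM in the E12.5 mutant, against 49.8 FPKM in the E12.5 control. At E13.5 the controls lay between the mutants, and the difference was 0.03 (95% interval -0.34 to 0.39, limma adjusted p = 0.975), with a sign that turned to -0.02 and -0.03 under median ratio and upper quartile scaling.

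**Figure D2:**
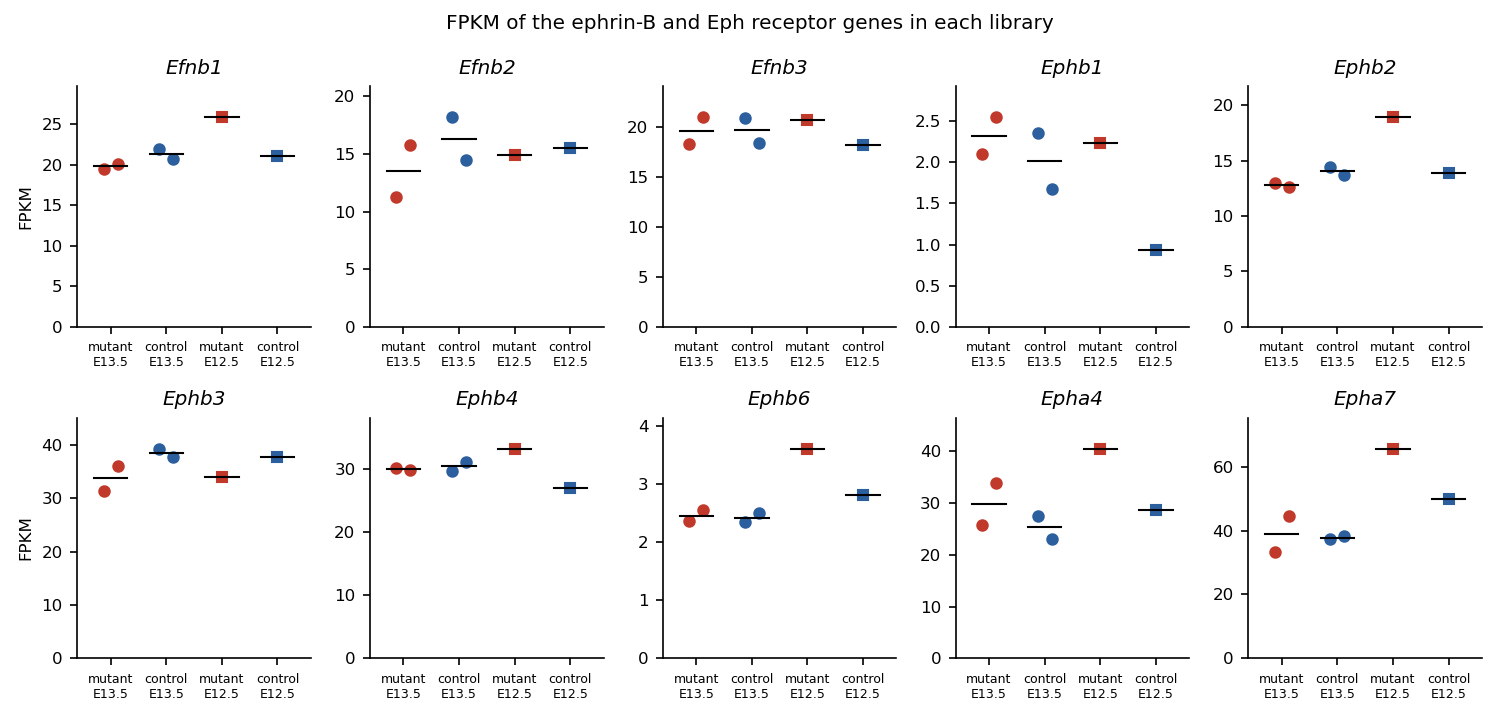
FPKM of each of the 10 genes, on a linear axis from 0, in the mutant (red) and control (blue) libraries of E13.5 (circles) and E12.5 (squares), with 1 point per library and a bar at the group mean. The genotypes overlap at E13.5 except for Efnb1, Ephb2 and Ephb3, where both mutants lie below both controls. The E12.5 mutant is the highest library for Epha7 (65.6 FPKM), Epha4 (40.4 FPKM), Efnb1, Ephb2, Ephb4 and Ephb6. That library also has the highest FPKM sum (189855), and its median gene is 0.18 above the E12.5 control on the log2 scale.

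None of the 10 genes was called between genotypes. At E13.5 limma called 0 of 10, and 0 of 10 had an unadjusted p under 0.05, beside 1.29% of the 10799 genes tested that were called and 9.24% with an unadjusted p under 0.05. Adjusted p ran from 0.786 to 0.997. The median difference of the 10 was -0.01, against 0.04 over all genes. Of the 10 differences, 4 were positive and 6 negative, beside 6653 and 4145 of those of all genes tested. All 10 intervals lay between -0.66 (Efnb2) and 0.59 (Epha4), so none reached a difference of 1 on the log2 scale in either direction. In 3 of 10 genes both mutants were below both controls and in 0 of 10 above, beside 13.2% and 24.8% of all genes tested.

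Across both ages, with 3 mutant and 3 control libraries and age as a term, limma again called 0 of 10 (1.44% of all genes tested were called). An unadjusted p under 0.05 was reached by Ephb1 alone (difference 0.34, SE 0.15, 95% interval 0.01 to 0.68, limma adjusted p = 0.377), against 13% of all genes. The E13.5 libraries of Ephb1 overlapped (difference 0.15), and the E12.5 pair differed by 0.74. The intervals of the 10 genes lay between -0.51 and 0.68, and their median difference was 0.07, against 0.09 over all genes. The sign of Efnb1, Efnb3, Ephb2 and Ephb4 in this contrast was positive on the deposited scale and negative under each of the 3 other scalings.

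**Figure D3:**
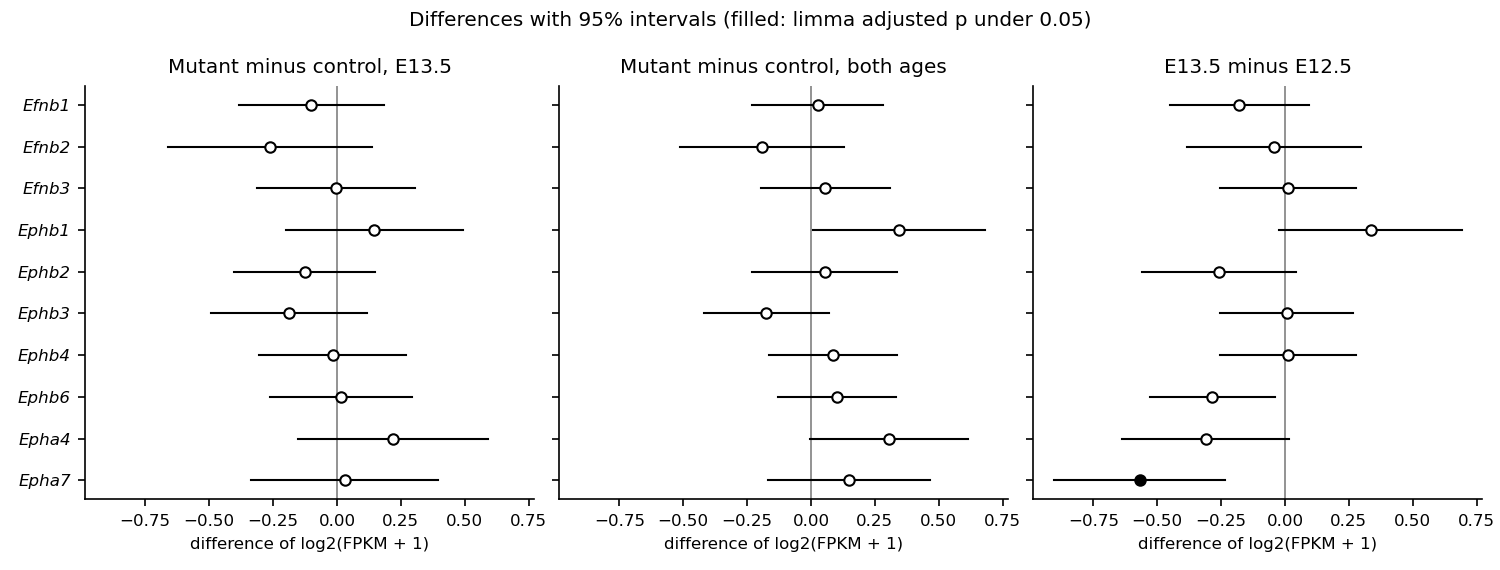
Differences of log2(FPKM + 1) for the 10 genes, as points with 95% intervals from limma, for mutant minus control at E13.5, mutant minus control across both ages, and E13.5 minus E12.5. Filled points have an adjusted p under 0.05, and Epha7 in the age contrast, at -0.57, is the only one.

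At E12.5 there was a single pair, so no test was made. The difference of the median gene, mutant minus control, was 0.18 as deposited and -0.06 after both libraries were brought to the same FPKM sum, so the differences are given relative to the median gene. They were 0.56 for Ephb1, 0.30 for Epha4, 0.23 for Ephb2, 0.21 for Epha7, 0.10 for Ephb4 and for Efnb1, 0.09 for Ephb6, -0.0044 for Efnb3, -0.23 for Efnb2 and -0.33 for Ephb3. Ephb1 stood farthest from the median, farther than 95.8% of the genes tested, followed by Ephb3 (84.7%) and Epha4 (81.3%). None reached 1 on the log2 scale, a size that 0.936% of genes at 5 FPKM or more reached, and 0.772% relative to the median gene. Ephb1 and Ephb6, at 2.23 and 3.60 FPKM in the E12.5 mutant and lower in its control, are outside the genes of these shares. The value of Ephb1 depends on the pseudocount because the gene is low: its difference before centring was 0.74 with a pseudocount of 1, 1.17 with 0.1 and 0.28 with 5.

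Whether the genotype difference changed between the ages was tested as an interaction, with the lone E12.5 libraries assumed to vary like those of E13.5. Limma called 0 of 10 genes, as it called 0.037% of all genes tested. The lowest p was that of Ephb2 (-0.54, SE 0.212, 95% interval -1.02 to -0.06, limma adjusted p = 0.833). It was the only one of the 10 with an unadjusted p under 0.05, beside 5.81% of all genes. All 10 values were negative on the deposited scale (-0.59 to -0.04), as were those of 7851 of the 10799 genes tested. The median gene was at -0.13 on this scale. After scaling to equal FPKM sums, 4 of the 10 signs (Efnb2, Efnb3, Ephb3 and Epha4) turned.

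Between the ages, 1 of the 10 genes was called, Epha7, a share not above the 16.7% of all genes tested that were called for age. Epha7 fell to 33.3, 44.7, 37.4 and 38.2 FPKM at E13.5, against 65.6 and 49.8 FPKM at E12.5, and all 4 later libraries lay below both earlier ones. The difference, with genotype as a term, was -0.57 on the log2 scale (0.674-fold, SE 0.15, 95% interval -0.91 to -0.23, limma adjusted p = 0.0307). Without the E12.5 mutant, the library with the highest FPKM sum, the difference was -0.39 (limma adjusted p = 0.312), and the call was also lost without the E12.5 control (-0.75, limma adjusted p = 0.0556), without control replicate 1 of E13.5 (-0.59, limma adjusted p = 0.0622) and without a filter on low values (limma adjusted p = 0.102). Within the genotypes the age difference of Epha7 was -0.75 in mutants (limma adjusted p = 0.0556, 0 of 10 genes called, beside 6.63% of all genes) and -0.39 in controls (limma adjusted p = 0.314, 0 of 10 called, beside 4.23%). The call was kept with equal FPKM sums (-0.50, limma adjusted p = 0.0323), with median ratio scaling and with upper quartile scaling.

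The 95% intervals of 2 of the 10 genes, Epha7 and Ephb6, left out 0. Ephb6 also had all 4 E13.5 libraries (2.34 to 2.55 FPKM) below both E12.5 libraries (3.60 and 2.81 FPKM), as did 22.9% of all genes tested, with a difference of -0.29 that did not pass after adjustment (95% interval -0.53 to -0.04, limma adjusted p = 0.1004). For Epha4 the difference was -0.31 (limma adjusted p = 0.168), for Ephb2 -0.26 (limma adjusted p = 0.211) and for Efnb1 -0.18 (limma adjusted p = 0.334). Ephb1 had a positive value, 0.33 (limma adjusted p = 0.174), with 0.63 between the control libraries (limma adjusted p = 0.101) and 0.04 between the mutant libraries (limma adjusted p = 0.917). Efnb2, Efnb3, Ephb3 and Ephb4 stood between -0.04 and 0.01. In none of the 10 did all E13.5 libraries lie above both E12.5 libraries, as they did in 13.6% of all genes tested. Age goes together with the number in the library titles (2962 at E12.5 and 3047 or 3048 at E13.5), and both E12.5 libraries had Xist, so age, that number and sex cannot be fully told apart.

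Of the 2 transcript lines of Ephb1, the one without exon 10, the exon printed above beside that of Epha7, took 83.5% and 92.3% of the FPKM of the gene in the E13.5 mutants, against 0.0589% and 51.0% in the E13.5 controls, and 30.7% in the E12.5 mutant, against 15.0% in the E12.5 control. In FPKM it had 1.76 and 2.35 in the E13.5 mutants, against 0.00139 and 0.853 in the E13.5 controls, and 0.684 in the E12.5 mutant, against 0.140 in the E12.5 control. The mutants were thus above the controls at each age, but the 2 E13.5 controls were 50.9 percentage points apart, close to the 62.4 points between the group means. With 2 libraries a group, an exact two-sided permutation test gives p = 0.333, the smallest it can give. The depth was low: a base of Ephb1 was covered 5.87 times on average in the E12.5 control and 10.6 to 13.8 times in the other libraries, and if the lines differ by exon 10 alone, only reads that touch it or span its junction tell them apart.

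The 2 lines of Ephb6 differ by 4 bases in length (3760 and 3756). The longer one took 99.9% and 98.9% in the E13.5 mutants, against 49.99% and 1.501% in the E13.5 controls, and 99.8% in the E12.5 mutant, against 50% in the E12.5 control, so the share moved over almost its whole range. The GENCODE table pairs both of these lines with the same transcript, and their sequences were not compared here. In Ephb1 and Ephb6, 2 of the 4 genes with a pair of lines, the mutants were above the controls at each age. Shares without overlap at E13.5 were found in 35.2% of the 1543 tested genes with a pair of lines and FPKM above 0 in every library, and with the same direction at E12.5 in 18.6%. The longer line of Ephb4 has 27 additional coding bases at the start of exon 7 (chr5:137362363-137362389, plus strand), which are shown because they are all that separates its coding sequence from that of the shorter line.
Ephb4 exon 7, additional bases: ggcgcattgggtttctttctcctgcag
That line took 16.0% and 4.01% of the FPKM in the E13.5 mutants, against 15.3% and 0.00698% in the E13.5 controls, and 35.2% in the E12.5 mutant, against 0.0145% in the E12.5 control, and the E13.5 genotypes overlapped. A base of Ephb4 was covered 149 to 196 times. In Epha7, whose lines differ by 3460 bases, the shares were steady: the short line, which lacks the exons of the kinase domain and corresponds to a truncated receptor known in the mouse, took 4.12% and 2.92% in the E13.5 mutants, against 3.44% and 3.41% in the E13.5 controls, and 2.32% in the E12.5 mutant, against 4.37% in the E12.5 control.

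**Figure D4:**
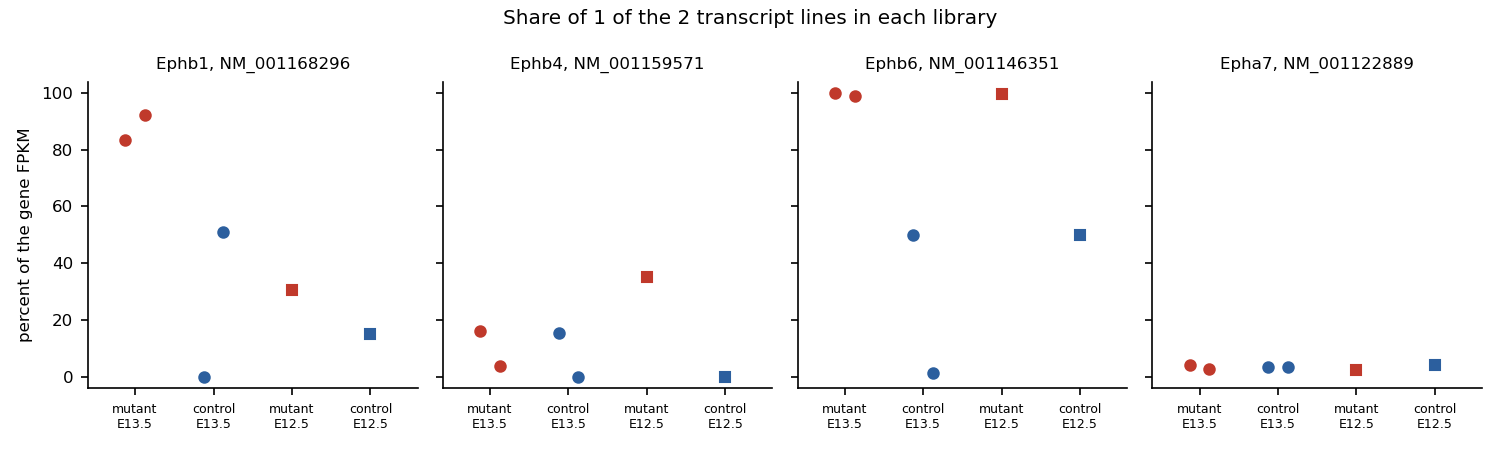
Share of the FPKM of a gene, in percent, given to 1 of its 2 transcript lines in the mutant (red) and control (blue) libraries of E13.5 (circles) and E12.5 (squares). For Ephb1 and Ephb6 the share spans from 0.0589% to 92.3% and from 1.501% to 99.9%, and for Epha7 it stays between 2.32% and 4.37%.

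Of the 12 other ephrin and Eph genes, 6 were tested and the other 6 were at 1.22 FPKM or less in every library. The highest were Epha3, a receptor of ephrin-A ligands, at 56.1 to 97.3 FPKM, and the ephrin-A genes Efna4, at 43.0 to 54.0 FPKM, and Efna5, at 11.6 to 17.0 FPKM. None of the 6 was called in the genotype contrasts, the age contrast or the interaction, and 1, 1, 1 and 2 of them had an unadjusted p under 0.05 in limma at E13.5, across both ages, for age and for the interaction, beside 9.24%, 13%, 33.2% and 5.81% of all genes. Between the control libraries alone, Efna3, an ephrin-A gene near the filter, had 1.33 and 1.16 FPKM at E13.5, against 0.283 FPKM at E12.5 (difference 0.80). This difference rests on the lone E12.5 control. Between the mutant libraries Efna3 had 0.951 and 0.937 FPKM at E13.5, against 0.819 FPKM at E12.5 (difference 0.096). Efna5 had 14.0 and 17.0 FPKM in the E13.5 mutants, against 12 and 11.6 FPKM in the E13.5 controls, with a difference of 0.36 (95% interval 0.06 to 0.67, limma adjusted p = 0.412). Both mutants were above both controls, and the gene did not pass after adjustment. Of the 6 genes, 2 had both mutants above both controls at E13.5 and 1 had them below. Of all genes tested, 24.8% and 13.2% did so.

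Of 46 listed partners and effectors of Eph and ephrin-B proteins, such as adaptors and guanine nucleotide exchange factors, 38 were tested. None passed between genotypes at E13.5 or across both ages, beside 1.29% and 1.44% of all genes tested. In limma at E13.5, 1 had an unadjusted p under 0.05 (2.63% of them), beside 9.24% of all genes. Across both ages 5 had one (13.2% of them), beside 13% of all genes. The median difference of the 38 at E13.5 was 0.07, against 0.04 over all genes. The lowest p at E13.5 was that of Gja1, the gap junction protein connexin 43, which had 6.45 and 8.34 FPKM in the E13.5 mutants, against 5.40 and 5.91 FPKM in the E13.5 controls (difference 0.33, limma adjusted p = 0.528). Of the 38 genes, 8 had both mutants above both controls at E13.5 and 5 had them below, beside 24.8% and 13.2% of all genes tested. Pard6b, a cell polarity gene that reached 1 FPKM in only 2 libraries, had a difference of -0.38 (limma adjusted p = 0.686). Its genotypes overlapped, with 0.291 and 0.989 FPKM in the E13.5 mutants, against 1.28 and 0.906 in the E13.5 controls.

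For age, 1 of these 38 rose and 1 fell, beside 16.7% of all genes tested that were called in either direction. Grip1, a PDZ protein that binds ephrin-B tails, rose to 2.51, 2.48, 2.10 and 2.15 FPKM at E13.5, against 1.70 and 1.38 FPKM at E12.5 (difference 0.38, limma adjusted p = 0.0327). Gja1 fell to 6.45, 8.34, 5.40 and 5.91 FPKM at E13.5, against 10.6 and 7.47 FPKM at E12.5 (difference -0.41, limma adjusted p = 0.044), although mutant replicate 2 of E13.5 stayed above the E12.5 control. Leaving out any 1 library ended the call of Grip1 (limma adjusted p = 0.0516 to 0.184). Of the 6 fits that leave out 1 library, Gja1 was called in 1, that without E13.5 mutant replicate 2, and with another scaling its limma adjusted p was 0.058 to 0.0902.

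For the 2 genes with the lowest p at E13.5 and between ages, the genes most like them over the 6 libraries were listed by Pearson r of log2(FPKM + 1), as a description of libraries that share their age, depth and scaling. Nearest to Efnb2 were Sox12 (r = 0.987), Klhdc3 (0.971), Mlh3 (0.9696), Tiam1 (0.967) and Clec16a (0.958), and 24 tested genes had an r of at least 0.9. Nearest to Epha7 were Psme4 (0.998), Smc4 (0.997), Arid1a (0.996), Stxbp6 (0.995) and Gtf2h4 (0.995), with 861 tested genes at 0.9 or more, so the pattern of Epha7 was one that many genes had. Of these, Tiam1, an exchange factor for Rac, was among the listed effectors, with 5.46 and 6.99 FPKM in the E13.5 mutants, against 7.50 and 6.39 FPKM in the E13.5 controls.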

How the data were processed

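The deposited tables hold 31579 RefSeq transcript lines, each with an FPKM and a coverage signal (how often a base of the transcript was read on average), per the file headers. The authors used Cufflinks (version not given in the sources used here). Per the submitters' processing notes, TopHat 1.4.1, Bowtie 0.12.7 and both mm9 and mm10 were used. Printed positions are on GRCm38 (mm10). Per the labels, poly A RNA was selected and read as 75-base pairs. Coverage served only to judge depth, and since read counts were not used here, counting intervals are not given.

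FPKM was summed per symbol, and 25 symbols with a failed estimate were left out. Genes reaching 1 FPKM in 2 or more of 6 libraries (10799) were tested on log2(FPKM + 1) with limma 3.58.1 in R 4.3.3 (moderated two-sided test, intensity trend, Benjamini-Hochberg adjustment over all genes tested, threshold 0.05). The pseudocount shrinks differences of low genes. The E13.5 contrast and the interaction came from a model of group means over all libraries, and the age contrast and the genotype contrast across both ages from a model with both terms and no interaction. The fits were checked on simulated data. Exon sequences come from the GENCODE M21 transcripts (GRCm38), which the GENCODE table pairs with the RefSeq lines. The GENCODE transcripts of Ephb1 and Ephb4 also differ in UTR length.

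The 10 genes and the lists were chosen with earlier results of these data known. Named are all 10 genes, Osr2, the 3 highest of the other ephrin and Eph genes, effectors past the threshold or otherwise the 4 with the lowest p at E13.5 (2 of these 4 are not reported here), and the 5 genes most like 2 of the 10 genes. Xist and single markers were added after their values were seen. Alternatives changed the pseudocount, the filter, the scaling, the trend and the libraries.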

Additional observations from a re-analysis of the deposited data

How the results depend on the processing

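The call between genotypes, 0 of the 10 genes at E13.5, across both ages and in the interaction, held under each alternative run (17, 14 and 14 of them, with Ephb1 and Ephb6 not tested at a mean of at least 5 FPKM), with a lowest limma adjusted p of 0.227, 0.168 and 0.326. For age, the 1 call (Epha7) became 0 without a filter on low values, in the control or mutant libraries only, and in 3 of 6 leave-one-out fits, so it ranged from 0 to 1 there. Counts over all genes moved more: with no filter they were 0, 0, 679 and 13 for E13.5, both ages, age and interaction (139, 156, 1804 and 4 in the fit reported), with a mean of at least 1 FPKM 81 at E13.5 and 11 for the interaction, and with a mean of at least 5 FPKM 54, 93 and 993 for E13.5, both ages and age. Median ratio and upper quartile scaling gave 79 and 81 at E13.5 and 2 each for the interaction. Age in control and mutant libraries alone gave 457 and 716. Leaving out 1 library gave 75 to 192, 65 to 159, 465 to 1713 and 13 to 37 genes in the same order as for no filter. Leaving out control replicate 2 gave the 75 at E13.5, mutant replicate 1 and control replicate 1 gave 65 and 79 across both ages, and the E12.5 mutant, the E12.5 control and control replicate 1 gave 465, 718 and 1201 for age. The cause of these shifts was not tested. The age differences in mutant libraries only are those of the fit without the E12.5 control. Those in control libraries only are those of the fit without the E12.5 mutant, so these alternatives are not independent.

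Signs changed for values that were between -0.26 and 0.15 in the fit reported. With equal FPKM sums, across both ages, Efnb1 was at -0.077, Efnb3 at -0.045, Ephb2 at -0.047 and Ephb4 at -0.019, Efnb2 was at 0.022 for age, and Efnb2, Efnb3, Epha4 and Ephb3 were at 0.049, 0.084, 0.012 and 0.23 for the interaction. With median ratio scaling Epha7 and Ephb6 were at -0.018 and -0.020 at E13.5, Efnb1, Efnb3, Ephb2 and Ephb4 at -0.064, -0.033, -0.034 and -0.0060 across both ages, Efnb2 at 0.014 for age and Ephb3 at 0.090 for the interaction. With upper quartile scaling the same values, in the same order, were -0.030, -0.029, -0.082, -0.050, -0.051, -0.024, 0.027 and 0.11. In control libraries only, Efnb1, Efnb2 and Ephb2 were at 0.011, 0.063 and 0.013 for age, and in mutant libraries only Efnb3, Ephb3 and Ephb4 were at -0.080, -0.013 and -0.14. With each library left out in turn, at E13.5, Efnb3 was between -0.099 and 0.090, Epha7 between -0.18 and 0.24, Ephb6 between -0.024 and 0.053, Ephb1 between -0.019 and 0.31, and Ephb4 between -0.052 and 0.018. For age, Efnb1 was between -0.37 and 0.011, Efnb2 between -0.15 and 0.069, Efnb3 between -0.080 and 0.10, Ephb2 between -0.53 and 0.013, Ephb3 between -0.031 and 0.051, and Ephb4 between -0.14 and 0.16. For the interaction, Efnb2 was between -0.44 and 0.014, and Ephb3 between -0.14 and 0.055.

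Without an E12.5 library the interaction has no value, and the contrast across both ages was not refitted. No paired analysis by replicate number was possible because the labels give none, and they do not say what the number in the titles marks. With that number as a replicate block, where only the E12.5 pair and the 3 libraries titled 3048 bear on the genotype, limma called 0 of the 10 genes at E13.5, across both ages and in the interaction, and 192, 61 and 37 of all genes. Under this block Efnb3 was at 0.090 at E13.5, and Efnb2 and Ephb3 were at 0.014 and 0.055 for the interaction. Age cannot be told apart from that number. With 2 libraries per genotype at E13.5 and 1 at E12.5, smaller differences than the intervals span cannot be seen, and transcript shares of the low genes Ephb1 and Ephb6 rest on an average coverage of 5.87 to 20.8 reads.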
